A study of Homo sapiens with 12 samples.

Results

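Un-treated My5.CRBN cells and My5.CRBN cells grown with 10 µM lenalidomide for 72 h (3 days) were compared by 1 miRNA PCR array each, 2 of the 12 arrays of the study. The members were chosen by condition and not by value, and comprise all 372 assays for human miRNAs on these plates. A level could be compared for 367 of the 372 miRNAs, because 5 were at the detection limit on both arrays, namely miR-802, miR-340-5p, miR-302b-3p, miR-221-5p and miR-122-3p. With 1 array per condition there was no replicate, so every difference compares 2 arrays and carries no p-value. A level at least 3 fold higher or lower is used as a descriptive limit.

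All cells were derived from OCI-My5, a human multiple myeloma line with a low level of cereblon (CRBN). My5.CRBN carries a lentiviral CRBN cDNA and has a high level of CRBN, whereas My5.LV carries the vector alone, and both are pools of infected cells sorted for the green fluorescent protein of the vector. My5.LV.AGO2 and My5.CRBN.AGO2 additionally received a cDNA of AGO2 (EIF2C2), and a further pair of arrays, My5.LV.sh72 and My5.CRBN.sh72, came from cells that received an shRNA against EIF2C2. Lenalidomide was given at 10 µM for 72 h to My5.LV, My5.CRBN and both AGO2 cDNA lines, and for 120 h (5 days) to My5.LV and My5.CRBN, and each of the 12 conditions has 1 array. Un-treated cells are labelled as having no treatment, and whether they received the solvent of the drug is not given in the sources used here.

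miRNAs are short RNAs cut from either arm of a hairpin precursor, and they guide Argonaute proteins such as AGO2 to mRNAs that pair with their seed, the stretch from base 2 to base 8. The arm on the 5′ side gives the miRNA named 5p and the other arm the miRNA named 3p, and usually 1 arm is far more abundant in the cell. Lenalidomide is a drug for multiple myeloma that binds CRBN, the substrate receptor of a cullin-RING E3 ubiquitin ligase, and redirects the ligase to the lymphoid transcription factors IKZF1 and IKZF3. The comparison asks how the steady-state levels of miRNAs differ after lenalidomide in cells with much CRBN.

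The mature sequences of the miRNAs on which the results turn are shown with their seed in capitals, as RefSeq gives them with the GRCh38.p14 assembly, in which 330 of the 372 assays found a mature sequence by name. The first pair, miR-135a-5p and miR-135b-5p, is shown because it was the only family with a shared seed in which 2 members were at least 3 fold higher. Their sequences are the same at 22 of 23 positions, although the MIR135A1 hairpin lies at chr3:52294219-52294308 and MIR135B at chr1:205448302-205448398, both on the minus strand.
miR-135a-5p: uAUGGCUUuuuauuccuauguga
miR-135b-5p: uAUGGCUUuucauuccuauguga

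The next set is shown because on each array of CRBN-carrying cells with lenalidomide these miRNAs stood above all other arrays of the study. Their seeds all differ from each other. MIR205 lies at chr1:209432133-209432242 (plus strand), MIR455 at chr9:114209434-114209529 (plus strand), MIR145 at chr5:149430646-149430733 (plus strand), MIR223 at chrX:66018870-66018979 (plus strand), MIR144 at chr17:28861533-28861618 (minus strand) and MIR21 at chr17:59841266-59841337 (plus strand).
miR-205-5p: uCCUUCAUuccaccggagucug
miR-455-5p: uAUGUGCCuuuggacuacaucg
miR-145-3p: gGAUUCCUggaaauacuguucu
miR-223-3p: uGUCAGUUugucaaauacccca
miR-144-3p: uACAGUAUagaugauguacu
miR-21-5p: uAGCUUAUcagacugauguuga

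A further set is shown because these miRNAs were about as much higher on the lenalidomide array at 3 days but not at 5 days. MIR125A lies at chr19:51693254-51693339, MIR129-2 at chr11:43581394-43581483, and MIR134 and MIR136 in the same imprinted region of chromosome 14, at chr14:101054687-101054759 and chr14:100884702-100884783, all on the plus strand.
miR-125a-3p: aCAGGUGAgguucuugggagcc
miR-129-5p: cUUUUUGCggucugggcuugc
miR-134-5p: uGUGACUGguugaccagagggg
miR-136-5p: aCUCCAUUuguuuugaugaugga

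The last set holds 3 members of the miR-17 family, which were lower, a miRNA of another family with the same seed, and miR-551b-3p, the miRNA with the largest decrease among those measured on both arrays. miR-17-5p, miR-20a-5p and miR-106b-5p share the seed AAAGUGC. MIR17 and MIR20A lie in 1 cluster on the plus strand, at chr13:91350605-91350688 and chr13:91351065-91351135, MIR106B lies at chr7:100093993-100094074 on the minus strand, and MIR551B at chr3:168551854-168551949 on the plus strand. miR-519d-3p of the placental cluster on chromosome 19 has the same seed but matches miR-17-5p at only 13 of 22 positions, and it was at least 3.49 fold higher.
miR-17-5p: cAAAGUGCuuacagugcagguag
miR-20a-5p: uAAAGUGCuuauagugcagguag
miR-106b-5p: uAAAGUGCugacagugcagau
miR-519d-3p: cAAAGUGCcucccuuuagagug
miR-551b-3p: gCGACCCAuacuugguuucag

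Each well gives a Ct, the PCR cycle at which its product is detected, so that a lower Ct means more template and 1 cycle stands for a factor of 2. The whole lenalidomide plate was detected earlier. The 6 wells for reference small RNAs (RNU6, SNORD61, SNORD68, SNORD72, SNORD95 and SNORD96A) had an average Ct of 20.8 un-treated and 19.1 with lenalidomide, a difference of 1.72 cycles. The reverse transcription control wells moved by 1.85 cycles and the positive PCR control wells, whose template does not come from the cells, by 1.91 cycles on average, and the part of plate and run in the differences below was not tested. Every Ct was therefore set against the mean of the 6 control wells of its own array, and a log2 fold change is the difference between these relative values. The log2 fold changes of the 6 control wells ranged from -0.30 (SNORD72) to 0.36 (SNORD68) with an SD of 0.22.

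Duplicate wells show how far a single well can be trusted. The positive PCR control wells, at Ct 17.3 to 19.6, gave log2 fold changes of 0.58 and -0.20, that is 0.78 apart. The reverse transcription control wells, at Ct 21.9 to 23.9, gave 0.15 and 0.12. The wells for cel-miR-39, a worm miRNA whose assay serves for spike-in controls, had a Ct of 34.8 and 33.0 un-treated and of 31.5 and 33.8 with lenalidomide. Their log2 fold changes were 1.58 and -2.61, so that a pair of wells of 1 assay disagreed by 4.19 on the log2 scale at this low level. Over the 12 arrays these wells lay a median of 1.23 cycles apart, and the 2.38 cycles on the lenalidomide array were the largest gap. A change at least 3 fold was thus within what duplicate wells of that assay gave at Ct 31.5 to 34.8. It exceeded the spread of duplicates in the control wells at a Ct under 24, and no duplicate wells of these plates lay between these ranges. The arrays detected 348 (un-treated) and 367 (lenalidomide) miRNAs under the limit of Ct 35, against a range of 324 to 367 over the 12 arrays.

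Of 4 markers of blood cells, 3 were well detected. miR-142-3p, which is specific to blood cells, was the second most abundant assay of the un-treated array (Ct 16.9, and 15.8 with lenalidomide), miR-142-5p was at Ct 21.7 un-treated, and miR-150-5p of lymphocytes was at Ct 20.2 and 19.3. miR-155-5p, a miRNA of activated lymphocytes, was low, at Ct 31.3 and 28.9. The liver miRNA miR-122-5p was undetected under Ct 35 un-treated and at Ct 30.7 with lenalidomide. Muscle miR-1 was at Ct 20.9 and 19.2, so some markers of other tissues were also well detected in this line on both arrays, and the part of mixed cell types or of cross-detection was not tested. Of the embryonic stem cell miRNAs, miR-302b-3p was at the limit on both arrays. miR-302a-3p (Ct 32.9 and 30.6) and miR-372-3p (Ct 32.9 and 30.9) were detected at a low level on both.

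**Figure D1:**
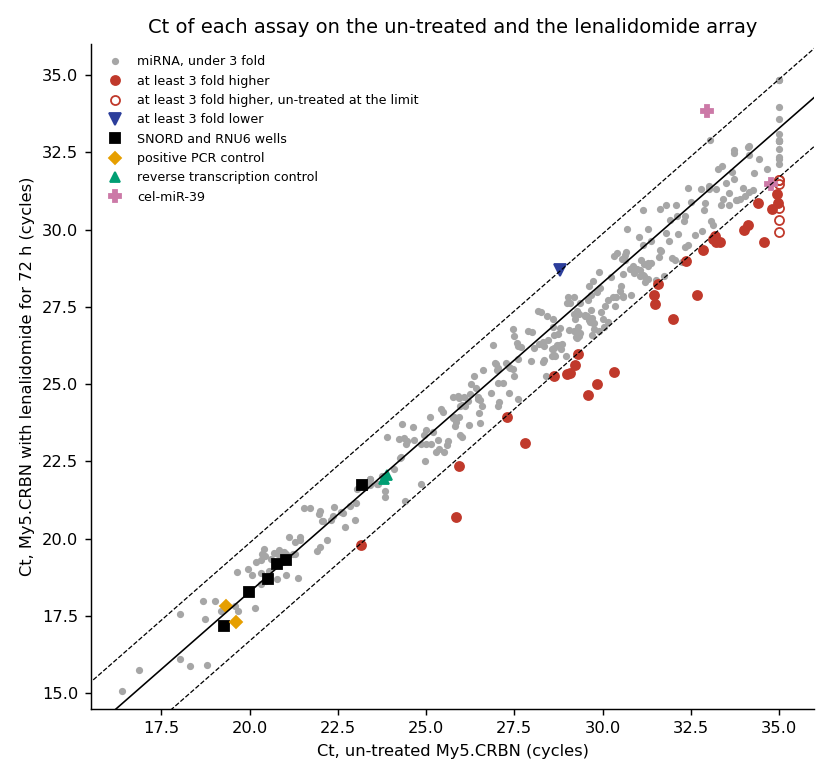
Ct of every assay on the un-treated array (x axis, cycles) and on the array of 72 h lenalidomide (y axis, cycles), 1 array each. The solid line is equal level after subtraction of the mean of the 6 control wells, the dashed lines are 3 fold higher (below) and lower (above), open circles are bounds from un-treated wells at Ct 35, and the control wells of all kinds except cel-miR-39 lie near the solid line with the 37 higher miRNAs below it.

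Relative to the control wells, most miRNAs were higher after 3 days of lenalidomide. Values at least 3 fold above those of un-treated cells were found for 37 of 367 miRNAs (10.1%), and values as far below for 1 (0.272%), miR-551b-3p. The log2 fold change had a median of 0.32 (1.25 fold) and quartiles of -0.25 and 0.94, and 239 of 367 (65.1%) were above 0. For 268 miRNAs (73.0%) the difference was within 2 fold. The split between higher and lower depends on the reference. Against the mean of the miRNAs detected on all arrays, which lowers every value by 0.35, 175 of 367 were above 0, and 19 were at least 3 fold higher and 3 lower. Against the reverse transcription control wells, which lowers every value by 0.13, 28 were higher and 2 lower.

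miR-135a-5p, which is known to repress the tumour suppressor APC, had the largest difference among miRNAs measured on both arrays. Its Ct fell from 25.9 un-treated to 20.7 with lenalidomide, a 10.8 fold higher level (log2 3.43). Its near-identical relative miR-135b-5p went from Ct 23.2 to 19.8 and was 3.13 fold higher (log2 1.64). These were the most abundant of the higher miRNAs together with miR-28-3p, made from an intron of the LPP gene, which went from Ct 25.9 to 22.4 (3.63 fold, log2 1.86). Only these 3 of the 37 had a Ct under 26 un-treated, and of them only miR-135b-5p lay in the range of the duplicate control wells of these plates. Because miR-135a-5p and miR-135b-5p differ by 1 base, how far each assay also read the other miRNA was not tested.

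miR-205-5p, an epithelial miRNA that represses ZEB1 and ZEB2, went from Ct 30.3 to 25.4 and was 9.12 fold higher (log2 3.19). miR-455-5p, encoded in an intron of the collagen gene COL27A1, went from Ct 32.01 to 27.10 and was 9.08 fold higher (log2 3.18). miR-125a-3p went from Ct 29.6 to 24.6 and was 9.22 fold higher (log2 3.20), while miR-125a-5p, the other arm of its hairpin and a homologue of worm lin-4, was at Ct 31.9 and 30.3 (log2 -0.12). miR-129-5p went from Ct 27.8 to 23.1 (7.93 fold, log2 2.99). Among these higher miRNAs, miR-125a-3p and miR-129-5p had a Ct under 30 on both arrays. miR-205-5p and miR-455-5p started above Ct 30, at 30.3 and 32.01, nearer to the level at which the cel-miR-39 wells disagreed.

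The imprinted DLK1-DIO3 region of chromosome 14, a large miRNA cluster known from brain and placenta, had 4 of 29 miRNAs at least 3 fold higher, near the share of 10.1% over all miRNAs. miR-134-5p, a neuronal miRNA that represses LIMK1, went from Ct 29.83 to 24.99 (8.73 fold, log2 3.13). miR-136-5p went from Ct 34.6 to 29.6 (9.47 fold, log2 3.24). miR-539-5p and miR-377-5p were at the limit un-treated and at Ct 30.3 and 31.6 with lenalidomide, so that they were at least 7.79 fold and at least 3.17 fold higher. Only miR-134-5p of these had a Ct under 30 on both arrays.

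Of 7 blood-lineage miRNAs, 2 were at least 3 fold higher (10.1% of all miRNAs were) and 3 were below 0, namely miR-142-5p (-1.02), miR-150-5p (-0.79) and miR-142-3p (-0.61). miR-144-3p and miR-144-5p, the arms of an erythroid hairpin, were at the limit un-treated and at Ct 29.9 and 31.6 with lenalidomide, at least 10.3 fold and at least 3.21 fold higher. Their neighbour miR-451a, which AGO2 itself cuts from its precursor, went from Ct 30.4 to 27.8 (log2 0.85). miR-223-3p of myeloid cells went from Ct 28.6 to 25.3 (3.15 fold, log2 1.66), and miR-223-5p, which started near the limit, was 4.94 fold higher (log2 2.31). miR-144 and miR-223 were the only 2 hairpins of 82 with values for both arms in which both were at least 3 fold higher.

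Of the other higher miRNAs, those with a Ct under 30 un-treated were miR-187-3p (29.1 to 25.4, 3.94 fold), miR-10a-5p of the HOXB cluster (29.0 to 25.3, 3.81 fold), miR-296-3p (29.2 to 25.6, 3.65 fold), miR-195-3p (27.3 to 23.9, 3.14 fold) and the pancreatic islet miRNA miR-375 (29.30 to 25.97, 3.05 fold). The remaining ones started at Ct 30 or above. Among them miR-1265 was 8.41 fold higher, miR-122-5p at least 5.96 fold, miR-580-3p 5.27 fold, miR-498 5.23 fold, miR-145-3p 4.81 fold, miR-649 4.45 fold, miR-338-3p 4.24 fold and miR-23b-5p 4.02 fold. The others, miR-211-5p, miR-200c-5p, miR-499a-3p, miR-519d-3p, miR-222-5p, miR-511-5p, miR-488-3p, miR-218-1-3p and miR-508-5p, were 3.09 to 3.68 fold higher, where the value of miR-519d-3p (3.49) is a lower bound. In all, 25 of the 37 (67.6%) had a Ct of 30 or above un-treated, against 137 of the 367 (37.3%), and 6 of the 37 are lower bounds because the un-treated well was at the limit.

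Values ran on across the limit without a gap. Just inside stood miR-135b-5p (3.13 fold), miR-508-5p (3.09 fold) and miR-375 (3.05 fold), and just outside miR-626 (2.99 fold), miR-575 (2.89 fold) and miR-196b-5p (2.85 fold). These neighbours differ by less than the SD of the control wells.

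The decreases were smaller than the increases. miR-551b-3p was at Ct 28.8 on the un-treated array and at 28.7 with lenalidomide, which against the control wells is a log2 fold change of -1.61. It was past 3 fold by less than the SD of the control wells, and without SNORD68 among the control wells no miRNA was at least 3 fold lower. miR-520g-3p of the placental cluster followed at -1.58, near the limit of detection (Ct 33.0 and 32.9). Over all 367 miRNAs, 137 (37.3%) had an un-treated Ct of 30 or above. The un-treated Ct is part of the fold change, so that a choice of decreases favours a low un-treated Ct. 13 miRNAs measured on both arrays were at least 2 fold lower, and 10 of these had a Ct under 30 un-treated.

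Of these, miR-20a-5p, a member of the oncogenic miR-17-92 cluster that MYC activates, was at Ct 18.0 and 17.6 (log2 -1.25), and its seed relative miR-106b-5p at Ct 18.7 and 18.0 (log2 -1.04). miR-301a-3p was at Ct 21.5 un-treated (log2 -1.18), miR-7-5p at 23.9 and 23.3 (log2 -1.12), miR-32-5p at 26.9 and 26.3 (log2 -1.10) and miR-365a-3p at 24.3 and 23.7 (log2 -1.10). The decreases of miR-192-3p (-1.20) and miR-376a-3p (-1.05) rest on Ct values above 30. For 19 miRNAs at the limit only on the un-treated array the difference is a lower bound, so that the values of miR-137 (-1.56) and miR-606 (-1.57), both at Ct 34.8 with lenalidomide, give no direction. No miRNA was at the limit on the lenalidomide array alone.

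The most abundant assays moved in both directions, each by less than 3 fold. Of the 20 with the lowest Ct un-treated (16.4 to 20.3), 13 were below 0 and 7 above, from -1.25 to 1.15 with a median of -0.41, while in My5.LV the same 20 ranged from -0.36 to 0.26. miR-720, now regarded as a tRNA fragment, was the most abundant and went from Ct 16.4 to 15.1 (log2 -0.43), and miR-16-5p from Ct 18.0 to 16.1 (log2 0.19). miR-21-5p, an oncogenic miRNA that represses PDCD4, had the largest increase of the 20, from Ct 18.8 to 15.9 (log2 1.15). Its other arm, miR-21-3p, was at 0.82.

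The difference varied with the level of a miRNA. Levels were taken from the 10 arrays outside this comparison, so that the classes do not use its values. For the 17 miRNAs with a mean Ct under 20 the median log2 fold change was -0.38, and it was -0.28 at Ct 20 to 22, -0.03 at 22 to 24, 0.10 at 24 to 26, 0.24 at 26 to 28, 0.73 at 28 to 30, 0.60 at 30 to 32 and 1.07 at 32 to 34. For the 20 miRNAs with a mean Ct of 34 and over it was lower again, at 0.41. The median of the 133 miRNAs at Ct 28 to 32 was 0.65 and that of the 124 under Ct 26 was -0.06, a difference of 0.70 that no choice of control wells can alter. Across the 367 miRNAs of this 1 pair of plates, the rank correlation between mean Ct and log2 fold change was 0.37. At least 3 fold higher were 3 of the 124 miRNAs under Ct 26, but 12 of 47 (25.5%) at Ct 32 to 34.

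The trend was not the same in the other pairs. In My5.LV the medians were -0.16 for abundant miRNAs and -0.14 for those at Ct 28 to 32, in My5.CRBN.AGO2 they were -0.01 and 0.49, and in My5.LV.AGO2 -0.06 and -0.60. At 5 days in My5.CRBN, against the same un-treated array, they were 0.04 and -0.34. The plates differed in the same pairs. The mean of the control wells was reached earlier on the lenalidomide plate by 1.72 cycles in My5.CRBN, 1.54 in My5.CRBN.AGO2 and 2.42 in My5.LV.AGO2 and later by 0.21 cycles in My5.LV, and the positive PCR controls moved by 1.91, 1.16, 1.93 and -0.06 cycles. On the 5-day plate of My5.CRBN the control wells moved by 2.09 and the positive PCR controls by 1.06 cycles. The part of these plate differences in the trend was not tested. When the median of miRNAs of similar level was subtracted, 14 miRNAs remained at least 3 fold higher, all of them among the 37, led by miR-135a-5p (3.34), miR-144-3p (2.95), miR-205-5p (2.85), miR-136-5p (2.82) and miR-455-5p (2.56).

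**Figure D2:**
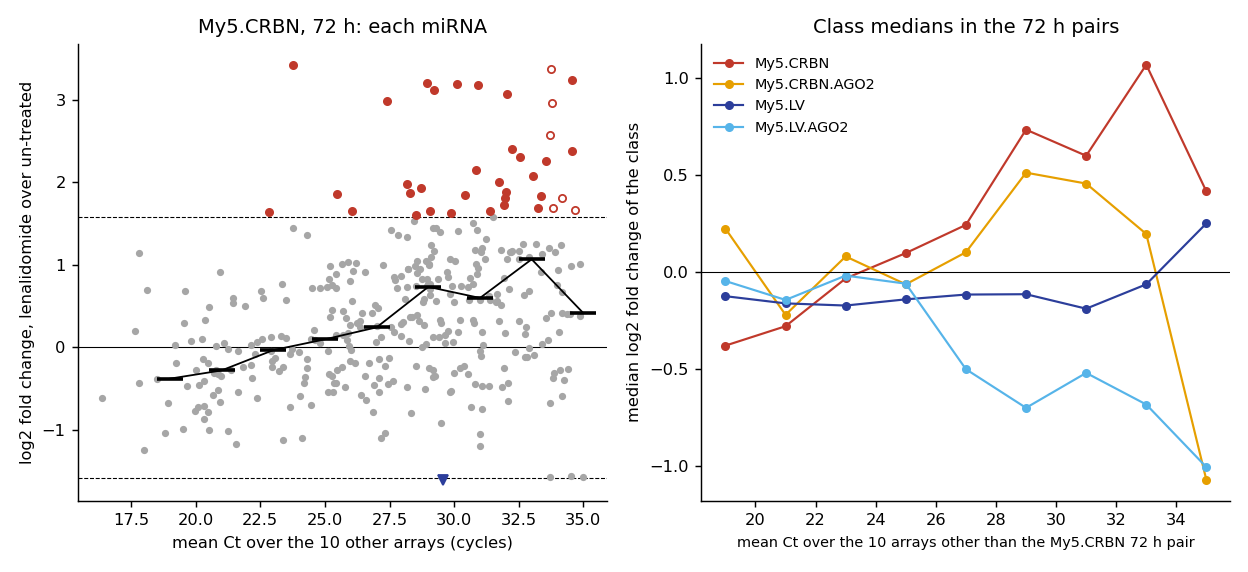
Left, log2 fold change of each miRNA (y axis) against its mean Ct over the 10 other arrays (x axis, cycles), with bars for class medians, dashed lines at 3 fold and open circles for lower bounds. Right, class medians in the 4 pairs of 72 h lenalidomide and un-treated arrays, where the line of My5.CRBN goes from -0.38 to 1.07 at Ct 32 to 34 and back to 0.41 above, and that of My5.LV stays between -0.19 and -0.06 up to Ct 34.

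Sequence composition differed little between the groups. Of the 37 higher miRNAs 35 had a mature sequence in RefSeq, with a median length of 22 bases and a median GC content of 45.5%, against 47.6% for the 291 others. At a mean Ct of 28 and over the medians were likewise 45.5% and 47.6%. The rank correlation between GC content and log2 fold change over 326 miRNAs was 0.12.

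Families and clusters, listed by what is known of them, differed in direction. Their counts should be read against all miRNAs, of which 10.1% were at least 3 fold higher and 65.1% above 0. The miR-17 family, repressors of CDKN1A, was below 0 in 5 of 5 members on the array: miR-20a-5p (-1.25), miR-106b-5p (-1.04), miR-17-5p (-0.99), miR-20b-5p (-0.78) and miR-93-5p (-0.28), median -0.99. miR-519d-3p of the placental cluster, which has the same seed but is not counted in this family, went the other way (1.80, a lower bound). All 5 were also lower relative to My5.LV, by a median of 0.65 on the log2 scale, and all 5 stayed below 0 with each normalizer tried, whereas 1 of 5 was above 0 once the median at similar level was subtracted. Several differ by only 2 bases, so that their assays may read each other, which was not tested.

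Members of 1 precursor did not move alike. The miR-17-92 transcript also carries miR-18a-5p (-0.71), miR-19b-3p (-0.68) and miR-92a-3p (-0.47), but miR-19a-3p, which has the seed of miR-19b-3p and the same base at 22 of 23 positions, was at 0.70 (Ct 18.3 and 15.9). miR-19b-3p and miR-92a-3p are also encoded in a cluster on the X chromosome, so their values cannot be assigned to this transcript alone. The minor arms miR-18a-3p (-0.33), miR-20a-3p (-0.59) and miR-19a-5p (-0.25) were below 0 and miR-92a-1-5p was at 1.10.

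The miR-143 and miR-145 cluster of chromosome 5, known from smooth muscle and often reduced in tumours, was higher in all 4 arms: miR-145-3p (2.27), miR-143-5p (1.43), miR-143-3p (1.36) and miR-145-5p (0.99). Only miR-145-3p was past 3 fold, from Ct 34.1 to 30.1. The 4 values remained above 0 with every normalizer and after subtraction of the median at similar level.

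In the chromosome 14 cluster, 22 of 29 miRNAs were above 0 and 4 at least 3 fold higher, with a median of 0.72 and a range from -1.05 (miR-376a-3p) to 3.24 (miR-136-5p). These miRNAs have low levels (median of their mean Ct 30.5), and the median shrank to 0.13, with 17 of 29 above 0, when the median at similar level was subtracted. The 5 miRNAs of the miR-506 to miR-514 cluster on the X chromosome, known from testis, lay between 0.04 and 1.63 (miR-508-5p). Against the mean of the miRNAs or the reverse transcription controls 1 of these 5 was below 0.

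The placental cluster on chromosome 19 had values from -1.58 to 1.80 over 8 miRNAs, of which 5 were at the limit un-treated. Of the let-7 family, widely expressed repressors of growth genes, 4 of 9 were above 0, between -0.72 (miR-98-5p) and 0.50 (let-7b-5p), against 1 of 9 relative to the mean of the miRNAs and 6 of 9 once the median at similar level was subtracted. The miR-15 and miR-103 families had 4 of 8 above 0 (median -0.07), the miR-30 family 1 of 5 (-0.41), the miR-200 family 1 of 5 (-0.35) and the miR-92 seed family 2 of 5 (-0.24). No listed member of these 5 families was at least 3 fold different. The lists leave out the other arms of the hairpins, of which miR-200c-5p (1.85) and miR-195-3p (1.65) were at least 3 fold higher. miR-29b-3p was at 0.91 and its relatives miR-29a-3p and miR-29c-3p at -0.14 and 0.02.

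Of the miR-10, miR-99, miR-100 and miR-125 families, which include HOX cluster miRNAs, 1 of 7 was at least 3 fold higher. miR-10a-5p (1.93) and miR-10b-5p (1.41), which are nearly alike in sequence, stood apart from the other 5, which lay between -0.29 and 0.33. miR-155-5p and miR-146a-5p, which NF-kB activates, were at 0.64 and -0.35. The p53-linked miR-192-5p, miR-194-5p and miR-215-5p were at 0.05, 0.77 and 1.07.

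Of the blood-lineage list, 4 of 7 were above 0 and 2 (miR-144-3p and miR-223-3p) at least 3 fold higher. Of the muscle miRNAs 4 of 6 were above 0 and none was past 3 fold, with miR-499a-5p highest at 1.24. The listed miRNAs of the miR-302 and miR-371 to miR-373 clusters of stem cells lay between -0.09 and 0.51. Their mean Ct was above 30 for all but miR-373-5p. The list leaves out the arms miR-302a-5p and miR-302b-5p, which were at 1.09 and 0.31. The miR-34 and miR-449 family lay between -0.49 (miR-449a) and 0.93, a lower bound for miR-34b-5p, and miR-221-3p and miR-222-3p were at 0.30 and 0.83. The miR-181 family lay between -0.24 and 0.98, the X-linked cluster of miR-424, miR-503, miR-542 and miR-450 between 0.18 and 1.45, and the miR-182, miR-183 and miR-96 cluster between -0.55 and 1.04. Of the miR-23, miR-24, miR-26 and miR-27 families 2 of 7 were above 0 (median -0.23), and of the miR-130 and miR-301 family 1 of 4 (-0.19).

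Small medians depended on the reference. Against the mean of the miRNAs the median fell below 0 for the miR-10 group (-0.11), the miR-181 family (-0.07), the miR-29 family (-0.33), the miR-34 family (-0.15), the miR-182 cluster (-0.21) and the stem cell clusters (-0.03). Against the reverse transcription controls the miR-29 family alone changed sign (-0.11). With the median at similar level subtracted, the sign changed for the let-7 family (0.15), the miR-15 and miR-103 families (0.09), the chromosome 19 cluster (-0.04), the miR-10 group (-0.01), the miR-182 cluster (-0.03), the miR-34 family (-0.39) and the stem cell clusters (-0.14).

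**Figure D3:**
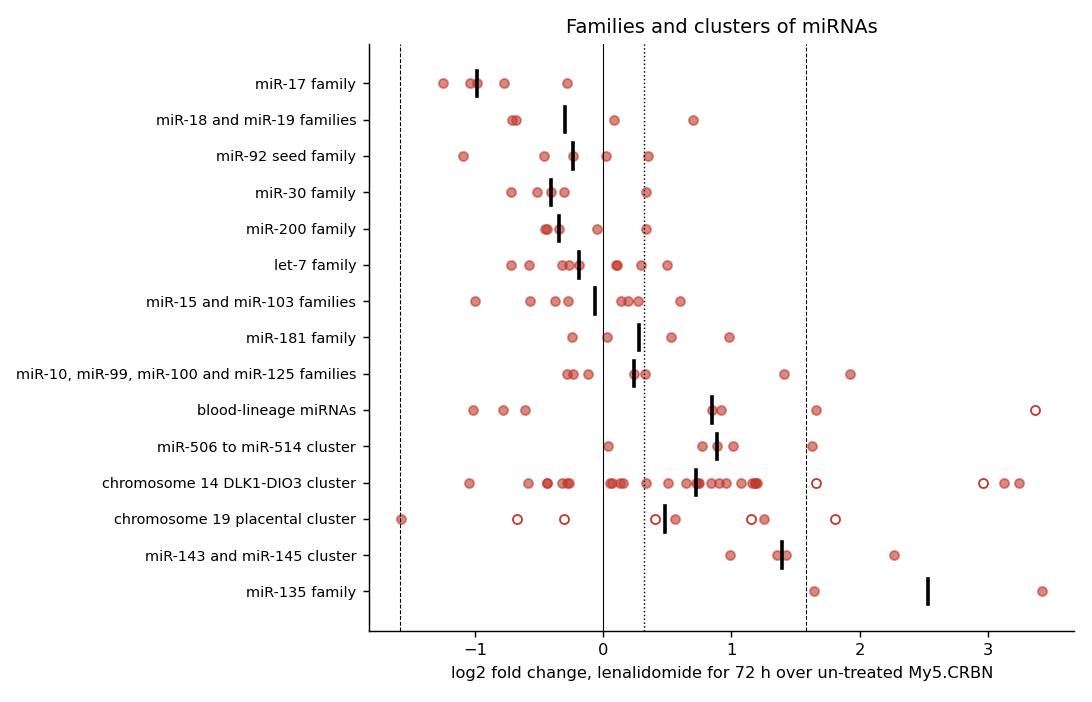
Log2 fold change (x axis) of each member of 15 families and clusters (rows), with bars for medians, open circles for lower bounds from un-treated wells at the limit, dashed lines at 3 fold and a dotted line at the median of all miRNAs (0.32). The 5 members of the miR-17 family lie below 0, with miR-519d-3p shown in the chromosome 19 cluster, and the miR-143 and miR-145 cluster and the miR-135 family wholly above.

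Arms of the same hairpin often differed. Over 76 hairpins with both arms under Ct 35 on both arrays, the arms were 0.81 apart in the median on the log2 scale, and in 6 they were at least 3 fold apart. The largest such gap was miR-125a, where the 3p arm was at 3.20 and the 5p arm at -0.12. It was followed by miR-205, with the 5p arm at 3.19 and the 3p arm, at Ct 33.0 and 31.3, at -0.01. In miR-200c the minor 5p arm was at 1.85 and the abundant 3p arm at -0.44, and in miR-23b they were at 2.01 and -0.23. miR-195-3p (1.65) exceeded the abundant miR-195-5p (-0.38, Ct 18.7 and 17.4) likewise. Between arms the correlation of log2 fold changes was 0.23 across these 76 hairpins.

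The same 72 h of lenalidomide in My5.LV, with little CRBN, gave other values. On a pair of arrays that shares no array with the My5.CRBN pair, 2 of 364 miRNAs (0.549%) were higher by at least 3 fold and 2 (0.549%) lower, and the median was -0.13. 0 of the 37 miRNAs were at least 3 fold higher there, 21 of 37 were above 0, and the highest was miR-338-3p at 1.34. miR-135a-5p was at 1.14, miR-455-5p at 0.88, miR-205-5p at 0.52 and miR-129-5p at -0.25 in My5.LV. For miRNAs under Ct 35 on all 4 arrays (n = 341), the correlation of the changes in the lines was 0.21.

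The difference between the changes in My5.CRBN and My5.LV was computed for 362 miRNAs. 49 of them (13.5%) were at least 3 fold more raised in My5.CRBN and 1 (0.276%), miR-551b-3p, at least 3 fold less, and over the 341 miRNAs under Ct 35 on all 4 arrays the counts were 41 and 1. The median difference was 0.43. All 37 higher miRNAs had a larger value in My5.CRBN, 29 of them by at least 3 fold, but they were picked for their value in My5.CRBN, which favours this. With 1 array per condition the difference could not be tested, and the plates of My5.CRBN, unlike those of My5.LV, differed in the PCR controls.

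Opposite directions past 3 fold were seen for 2 miRNAs. miR-551b-3p was at -1.61 in My5.CRBN and 2.01 in My5.LV. On the scale relative to the control wells, its level was -8.01 un-treated and -9.62 with lenalidomide in My5.CRBN, and -11.98 and -9.97 in My5.LV, so that the lines were closer to each other with the drug. miR-508-5p was at 1.63 in My5.CRBN and -1.72 in My5.LV, at Ct 28.2 to 31.6 in My5.CRBN.

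My5.CRBN.AGO2 cells, with CRBN and additional AGO2, provided a further pair that shares no array. There 31 of 359 miRNAs (8.64%) were higher by at least 3 fold and 9 (2.51%) lower, with a median of 0.19. Of the 37 miRNAs, 35 had a value there and 28 of these were above 0, against 206 of all 359 miRNAs (57.4%). At least 3 fold higher were 11, which is 31.4% of the 35 and 35.5% of the 31. The correlation of log2 fold changes with those of My5.CRBN was 0.41 across 320 miRNAs under Ct 35 on all 4 arrays. In My5.LV.AGO2, 1 of 366 miRNAs (0.273%) was higher and 35 (9.56%) lower, 8 of the 37 were among the lower ones, the single higher miRNA was miR-580-3p of the 37 (4.86), and the correlation was -0.19 over 342 miRNAs.

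The 11 miRNAs at least 3 fold higher in both CRBN pairs included miR-205-5p (3.19 in My5.CRBN and 4.72 in My5.CRBN.AGO2), miR-135a-5p (3.43 and 2.97), miR-455-5p (3.18 and 2.91), miR-129-5p (2.99 and 2.11), miR-10a-5p (1.93 and 2.18), miR-375 (1.61 and 2.49), miR-135b-5p (1.644 and 1.705) and miR-508-5p (1.63 and 1.68). The others were miR-223-5p, miR-145-3p and miR-144-5p, whose values in My5.CRBN.AGO2 (2.43, 2.02 and 1.67) are lower bounds. By contrast miR-125a-3p (-0.41) and miR-134-5p (0.51) were not higher by 3 fold in My5.CRBN.AGO2. The value of miR-136-5p there (-1.52) is a lower bound from an un-treated well at the limit and gives no direction. miR-551b-3p was at -1.65 there, near its value in My5.CRBN.

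**Figure D4:**
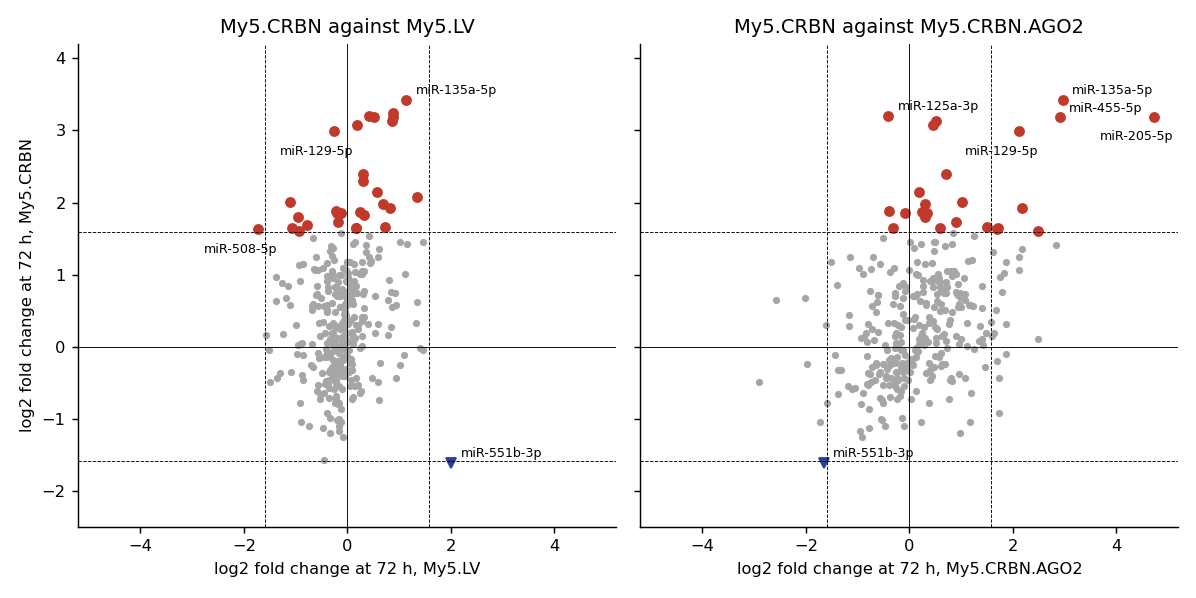
Log2 fold change after 72 h of lenalidomide in My5.CRBN (y axis) against that in My5.LV (left) and My5.CRBN.AGO2 (right), for miRNAs under Ct 35 on all 4 arrays. Those of the 37 higher miRNAs that meet this limit are in red, and the rest of the 37 are not drawn. miR-551b-3p is a triangle and dashed lines are at 3 fold. None of the red points is 3 fold higher in My5.LV, where miR-508-5p is past 3 fold lower, and miR-205-5p, miR-135a-5p, miR-455-5p and miR-129-5p do in My5.CRBN.AGO2.

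At 5 days the lenalidomide array of My5.CRBN is set against the same un-treated array, so the values at 3 and 5 days are not independent and are given side by side. At 5 days 19 of 363 miRNAs (5.23%) were higher by at least 3 fold and 40 (11%) lower, with a median of -0.14. miR-135a-5p was at 3.43 after 3 days and 3.98 after 5 days, miR-205-5p at 3.19 and 3.97, miR-455-5p at 3.18 and 3.86, miR-145-3p at 2.27 and 2.59, and miR-135b-5p at 1.64 and 2.20. Others were high at 3 days alone: miR-129-5p was at 2.99 and -1.75, miR-134-5p at 3.13 and -0.57, miR-1265 at 3.07 and -1.64, miR-125a-3p at 3.20 and -0.34, and miR-136-5p at 3.24 and -0.23. miR-20a-5p was at -1.25 and -0.67, and miR-551b-3p at -1.61 and 0.36.

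Levels on all 12 arrays are given as a description. In this view the log2 level is the mean Ct of the control wells minus the Ct of the miRNA. Wells at the limit stand at their bound, which differs between plates. For the 37 higher miRNAs the lenalidomide array was the highest of the 12 in 21 and the un-treated array the lowest in 2. It lay a median of 1.78 above the median of the 10 other arrays, and the un-treated array 0.37 below it. These miRNAs were chosen for a high value on the lenalidomide array against the un-treated one, so that these positions follow largely from the choice. Over all 367 miRNAs the lenalidomide array was the highest in 82 (22.3%) and the un-treated array the lowest in 3.

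3 arrays combine lenalidomide with added CRBN: My5.CRBN at 72 h, My5.CRBN.AGO2 at 72 h and My5.CRBN at 120 h. For 15 of the 367 miRNAs (4.09%) these 3 arrays were above all 9 others, and for 2 (0.545%), miR-504-5p and miR-218-5p, below. The higher list holds 7 of the 15. The other 2 of these arrays, which had no part in choosing the 37, were above all 9 for 7 of the 37 and for 18 of all 367 (4.9%), though the un-treated My5.CRBN array is both among the 9 and in the choice.

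miR-205-5p stood out most. Its log2 level was -6.33 in My5.CRBN at 72 h, -7.08 in My5.CRBN.AGO2 at 72 h and -5.55 in My5.CRBN at 120 h. On the 9 other arrays it lay between -11.80 and -9.52 with a median of -10.74. All 9 arrays without the combination, those of My5.LV with lenalidomide included, were thus lower by at least 2.44 on the log2 scale.

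miR-455-5p was at -8.03, -7.36 and -7.36 on these 3 arrays and between -12.92 and -10.27 on the others. miR-145-3p was at -11.11 to -10.74 against -14.63 to -12.86, and its cluster mate miR-143-3p at -5.45 to -4.50 against -10.74 to -6.68. miR-223-3p was at -6.19, -6.57 and -5.89 against -11.68 to -7.84. For these 4 miRNAs the groups were separated by 1.23 to 2.24 on the log2 scale.

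The erythroid cluster of chromosome 17 was among the 15 with 3 miRNAs: miR-144-3p (-12.02 to -10.84 against -15.40 to -12.92), miR-144-5p (-12.52 to -11.47 against -16.28 to -12.65) and miR-451a (-8.75 to -8.33 against -11.24 to -9.18). The -16.28 of miR-144-5p is the bound of a well at the limit in My5.LV.AGO2 with lenalidomide. miR-21-5p was at 3.15, 3.38 and 3.27 against 1.23 to 3.08. The gap of miR-21-5p, 0.07, is below the SD of the control wells, as were those of miR-144-5p (0.13), miR-424-5p (0.12), miR-28-3p (0.08), miR-9-3p (0.03) and miR-22-3p (0.01). miR-499a-5p (0.39) and miR-130a-3p (0.25) complete the 15.

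miR-135a-5p was not among them, because it was high in My5.LV with lenalidomide too. Its log2 level was -5.07 un-treated and -1.64 with lenalidomide in My5.CRBN, where the un-treated array was the 11th of the 12. It was -1.08 in My5.CRBN at 120 h and -3.35 in My5.CRBN.AGO2 with lenalidomide, while in My5.LV it was -3.88 un-treated, -2.74 at 72 h and -2.06 at 120 h. miR-125a-3p in contrast was at -5.58 on the lenalidomide array and between -9.43 and -7.57 on all others, the other lenalidomide arrays of My5.CRBN included. miR-134-5p (-5.92 against -10.44 to -7.84) and miR-136-5p (-10.54 against -16.02 to -13.14) behaved in the same way, and for these 3 the result rests on a single well. The -13.14 of miR-136-5p is the bound of a well at the limit in un-treated My5.CRBN.AGO2.

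**Figure D5:**
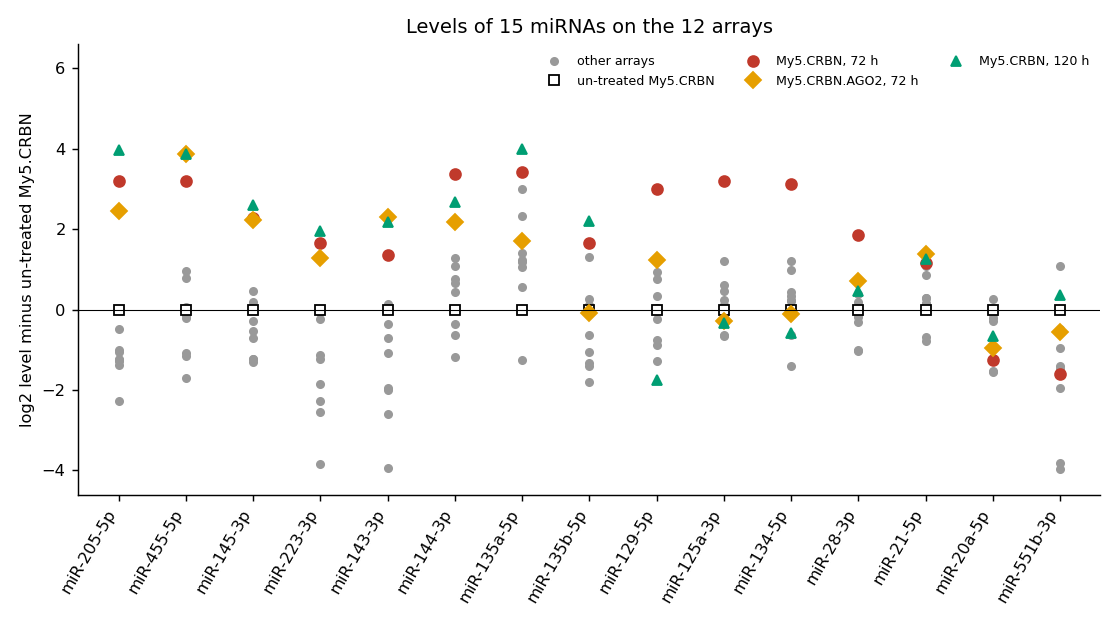
Log2 level (y axis) of 15 miRNAs on the 12 arrays, minus the level on the un-treated My5.CRBN array (square, 0), 1 point per array, with wells at the limit plotted at their bound. For miR-205-5p, miR-455-5p, miR-145-3p, miR-223-3p and miR-143-3p the 3 coloured arrays of lenalidomide with added CRBN lie above all others, whereas miR-125a-3p and miR-134-5p are high on the My5.CRBN 72 h array alone.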

How the data were processed

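RNA was extracted with the miRNeasy Mini kit, reverse transcribed with miScript II and amplified with SYBR Green on miScript PCR arrays. The authors deposited Ct values per well for 12 arrays, not normalized, with no replicate array. A second deposited table, the authors' fold changes against un-treated My5.LV, was not used.

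Ct values above 35 or undetermined were set to 35, the mean Ct of the 6 SNORD and RNU6 wells was subtracted, and a log2 fold change is the un-treated minus the lenalidomide value. Bounds were not called in a direction they cannot show. No test was run. The members, lists and comparisons were chosen with earlier results of these data known, and the comparison of the 3 arrays with lenalidomide and added CRBN against the other 9 after seeing values. Named were all miRNAs at least 3 fold changed, the 10 largest decreases under Ct 35, the 10 lowest Ct, those at the limit on 1 array or next to 3 fold, their other arms, and 26 lists of families and clusters. The computation was tested on simulated data. Alternatives changed the normalizer, the Ct limit, the filter on high Ct or the level adjustment. Python 3.11.15, NumPy 2.4.6, pandas 2.3.3 and Matplotlib 3.10.9 were used.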

Additional observations from a re-analysis of the deposited data

Results flagged for a closer look

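The median log2 fold change after 72 h of lenalidomide was 0.32 in My5.CRBN and -0.13 in My5.LV, and so lay on opposite sides of 0. Opposite directions past 3 fold were seen for miR-508-5p (1.63 in My5.CRBN and -1.72 in My5.LV) and for miR-551b-3p (-1.61 in My5.CRBN and 2.01 in My5.LV). None of these differences was tested, because each condition has 1 array, and the sign of the median in My5.CRBN turned against the mean of the miRNAs (-0.04).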

How the results depend on the processing

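The number of miRNAs at least 3 fold higher was 37, and it was 19 against the mean of the miRNAs, 18 with a Ct limit of 32, 12 when both Ct had to be below 30 and 14 after subtraction of the median at similar level. It was 28 against the reverse transcription controls and 35 to 39 without 1 of the control wells. The number at least 3 fold lower was 1, and it was 3 against the mean of the miRNAs, 2 against the reverse transcription controls, 0 against RNU6, 2 against the 5 SNORD wells, 2 without SNORD61, 0 without SNORD68, 2 without SNORD72, 2 with no Ct limit, 6 when the 5 miRNAs at the limit on both arrays were counted and 7 at similar level. The share of higher values among those called was 97.4%, and it was 86.4% against the mean of the miRNAs, 86.0% when these 5 were counted and 66.7% at similar level. The median of 0.32 was -0.036 against the mean of the miRNAs and 0.00 at similar level, both near 0 by construction. The 49 miRNAs more raised than in My5.LV were 29 against the mean of the miRNAs, 24 with a Ct limit of 32, 16 under Ct 30 on at least 1 array, 11 under Ct 30 on both and 19 at similar level. The difference between miRNAs of low and of high level (0.70) lay between 0.65 and 0.79 wherever it was computed. With a Ct limit of 32 the values of miR-122-5p (-0.43), miR-144-5p (-1.32), miR-338-3p (-0.86), miR-377-5p (-1.34), miR-498 (-0.57), miR-499a-3p (-0.58), miR-519d-3p (-1.20), miR-539-5p (-0.038) and miR-580-3p (-0.39) fell below 0, because the un-treated well was then set to 32, and give no direction. No replicate could be left out, and no paired analysis was possible because each condition has 1 array. Precision is limited by the single array per condition and by low signals, since 25 of the 37 higher miRNAs had an un-treated Ct of 30 or above.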
